A study of Schizosaccharomyces pombe with 2 samples.

Results

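Small RNA reads were examined over 7 genes of the Sty1 stress pathway in the fission yeast Schizosaccharomyces pombe. The genes were picked by name, with earlier results of these data known, and they make up 7 of the 5129 mRNA rows of the deposited table. They are wis1 (SPBC409.07c), sty1 (SPAC24B11.06c), pyp2 (SPAC19D5.01), atf1 (SPBC29B5.01), gpd1 (SPBC215.05), tps1 (SPAC328.03) and ntp1 (SPBC660.07). Their coding exon rows and the noncoding rows on the other strand were read together with them.

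The study compared a wild-type strain (WT, YAM2394) with a strain lacking exo2 (exo2Δ, YAM2397), the fission yeast form of the cytoplasmic exonuclease Xrn1, which degrades RNA from the 5′ end. Both strains are h+ and carry ade6-M210, ura4-D18 and leu1-32, and the mutant also carries exo2Δ::kanMX4. Cells were growing exponentially in rich medium and no stress treatment is described. RNAs of 10 to 40 nt, per the labels, were sequenced in 1 library per strain, so there is no replicate error, no test of the strains was possible, and every interval below covers counting error of reads only. These are small RNAs, and a density is not the level of the mRNA.

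Sty1 is a mitogen-activated protein kinase, related to p38 of mammals, that fission yeast uses to respond to osmotic stress, oxidants, heat and starvation. The kinase Wis1 activates it by phosphorylation, and the phosphatase Pyp2 removes a phosphate again. Active Sty1 acts in the nucleus through the bZIP transcription factor Atf1, which binds the cAMP response element (CRE). Known targets include atf1 and pyp2 themselves and the enzymes gpd1, tps1 and ntp1, which serve the making of glycerol and the making and breakdown of trehalose. A CRE upstream is therefore the textbook mark of this pathway.

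The CRE letters of the members are shown to set out which of these genes have an exact match to them shortly before the annotated start. The 500 bases before each annotated gene start in RefSeq (build ASM294v3) were searched on both strands for the core TGACGT and for the full palindrome TGACGTCA, which contains the core on both strands. The core was found for 3 of the 7 members, atf1, gpd1 and ntp1, and for 8.14% of the 5112 genes with a complete window. The full palindrome was found for 1 member, atf1, and for 0.372% of genes. The matches are printed below on the strand of the gene, with the matching letters in capitals.
atf1: agtgatgcaaTGACGTCAtctgtttgaa
gpd1, farther site: gtcaggcatgTGACGTttggtatcac
gpd1, nearer site: tagtgtttttACGTCAtttggtacgg
ntp1: caggtagactACGTCAttgagtaacg
RefSeq places the gene starts at 1546217 for atf1, 4035566 for gpd1 and 206581 for ntp1, which differ from those of the deposited table used further on. The atf1 match begins 52 bases before the RefSeq start (chrII:1546155-1546182, plus strand). The gpd1 matches begin 123 and 74 bases before it (chrII:4035433-4035458 and chrII:4035482-4035507, plus strand), and the ntp1 match begins 69 bases before it (chrII:206502-206527, plus strand). For wis1, sty1, pyp2 and tps1 the letters were not in this window. A match describes the letters and is not a measured binding site. The lack of an exact match in this window does not show that a gene has no Atf1 site.

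The libraries were of similar depth, with 13555082 reads in WT and 13678760 reads in exo2Δ over 9139 features that can overlap each other. The coding exons of exo2 held 251 WT reads and 26 exo2Δ reads, which is the direction of the labels. The source of the 26 reads left in the strain lacking exo2 was not tested. Among the 4749 mRNAs whose reads averaged at least 10 over the libraries, the median log2 ratio of exo2Δ over WT was -0.15, so that a typical mRNA was slightly lower in exo2Δ. For the 2454 mRNAs that averaged 100 reads or more, the middle 95% of log2 ratios ran from -1.10 to 0.88. This range of mRNAs is the yardstick beside which the members are read.

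All 7 members gave small RNA reads in both libraries, and all 7 passed the filter of 10 mean reads. Together they held 2975 WT reads and 1814 exo2Δ reads. The gene gpd1 took 46.7% of these reads in WT and 37.1% in exo2Δ. The signalling genes differed little between the libraries, whereas the enzymes gpd1, tps1 and ntp1 had densities close to 2-fold lower in exo2Δ. The members were chosen with earlier results of these data known, so this contrast is a description.

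The kinase genes had nearly the same density in both libraries. The gene wis1 (chromosome II, 1143731 to 1146633, minus strand) encodes the MAP kinase kinase. It held 216 reads in WT against 198 in exo2Δ, or 0.0744 and 0.0681 tags per nt. The fold of exo2Δ over WT was 0.915 with an interval of 0.750 to 1.11, which included no change. The gene sty1 (chromosome I, 206476 to 208044, minus strand) encodes the MAP kinase that Wis1 activates. It held 258 reads in WT against 250 in exo2Δ, or 0.164 and 0.159 tags per nt. Its fold of 0.967 had an interval of 0.809 to 1.16, and both kinase genes lay slightly above the median mRNA in log2 ratio, at -0.13 and -0.05.

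The phosphatase gene pyp2 (chromosome I, 5202366 to 5205202, plus strand) had the fewest reads of the 7 members. It held 29 reads in WT against 23 in exo2Δ, or 0.0102 and 0.00809 tags per nt, which was above that of 9.50% and 9.28% of mRNAs. The fold of 0.791 had an interval of 0.437 to 1.42, so that at this depth a difference of less than about 2-fold was not detectable. The small RNA density of pyp2 was 5.68-fold or more below the next member in each library. Its product acts in a negative feedback on Sty1. No stressed cells were sequenced, so a link between this role and the low density was not tested.

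The transcription factor gene atf1 (chromosome II, 1546194 to 1549862, plus strand) encodes the main nuclear effector of Sty1. It held 272 reads in WT against 224 in exo2Δ, or 0.0741 and 0.0609 tags per nt. The fold of 0.822 had an interval of 0.685 to 0.984, just below no change, and 39.3% of the mRNAs past the filter had a lower log2 ratio than its -0.28. With the libraries set so that the median mRNA had no change (median-ratio scaling), the fold of atf1 was 0.915 (0.763 to 1.096), which included no change. Summed over the 4 signalling genes there were 775 reads in WT against 695 in exo2Δ, a fold of 0.895 (0.807 to 0.993), which became 0.996 (0.898 to 1.105) under that scaling.

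The glycerol gene gpd1 (chromosome II, 4035580 to 4037342, plus strand) encodes glycerol-3-phosphate dehydrogenase, which makes the precursor of the osmolyte glycerol. It held 1388 reads in WT against 673 in exo2Δ, or 0.787 and 0.381 tags per nt. The density was 2.07-fold lower in exo2Δ (1.88 to 2.27), a log2 ratio of -1.05. It was the highest of the 7 members in both libraries, above 95.9% of mRNAs in WT and above 93.3% in exo2Δ. Of the mRNAs past the filter 4.27% had a lower log2 ratio.

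The trehalose genes were lower in exo2Δ by a similar factor. The gene tps1 (chromosome I, 3479098 to 3481305, plus strand) encodes trehalose-6-phosphate synthase, which makes the precursor of the protective sugar trehalose. It held 550 reads in WT against 305 in exo2Δ, or 0.249 and 0.138 tags per nt and a fold 1.81 lower (1.57 to 2.09). The gene ntp1 (chromosome II, 206580 to 209641, plus strand) encodes neutral trehalase, which splits trehalose into glucose. It held 262 reads in WT against 141 in exo2Δ, or 0.0856 and 0.0460 tags per nt and a fold 1.86 lower (1.51 to 2.30). The genes for making and for splitting the sugar were thus lower side by side, with log2 ratios of -0.85 for tps1 and -0.89 for ntp1, below which 7.96% and 7.14% of mRNAs lay.

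**Figure D1:**
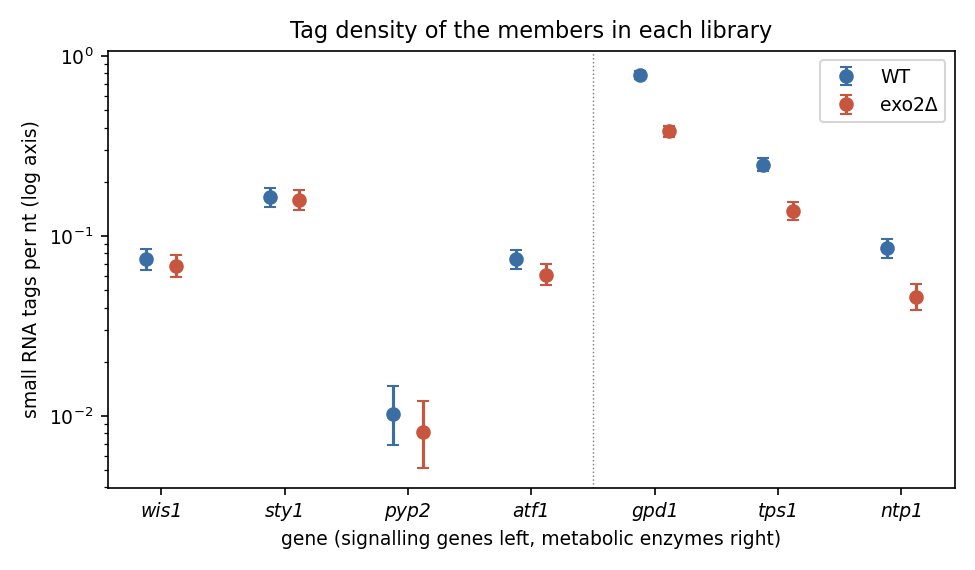
Small RNA tag density of the 7 members in tags per nt on a log axis, in WT and in exo2Δ, with 1 library each. Bars are exact Poisson 95% intervals of the reads, relatively wider for genes with fewer reads. Densities of gpd1, tps1 and ntp1 are 1.81- to 2.07-fold lower in exo2Δ. Those of wis1, sty1, pyp2 and atf1 are 1.03- to 1.26-fold lower, with fold intervals that include no change except for atf1.

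At a ratio over 2, 1 member (gpd1) was lower and 0 were higher in exo2Δ. Over all mRNAs past the filter 5.05% were lower and 2.4% were higher by this measure. At a ratio over 1.5, 3 members were lower, beside 18.4% of mRNAs. All 7 log2 ratios were below 0, as were 62.9% of those of mRNAs, and 5 of the 7 lay below the mRNA median. The median of the members was -0.32, against -0.15 for all mRNAs past the filter. This median is the value of pyp2, the member with the fewest reads, whose log2 interval of -1.19 to 0.50 includes the mRNA median. The median was -0.20 for the 4 signalling genes and -0.89 for the 3 enzymes. The enzymes together held 2200 WT reads and 1119 exo2Δ reads, a fold of 0.508 (0.472 to 0.546). All 7 members lay inside the middle 95% of mRNAs averaging 100 reads or more, although pyp2 itself was under that level. The number past 2-fold depended on the scaling. Scaled on sn(o)RNAs, gpd1, tps1 and ntp1 were past 2-fold and 10.5% of mRNAs were lower, and scaled on the median ratio of mRNAs 0 members and 3.07% of mRNAs were.

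**Figure D2:**
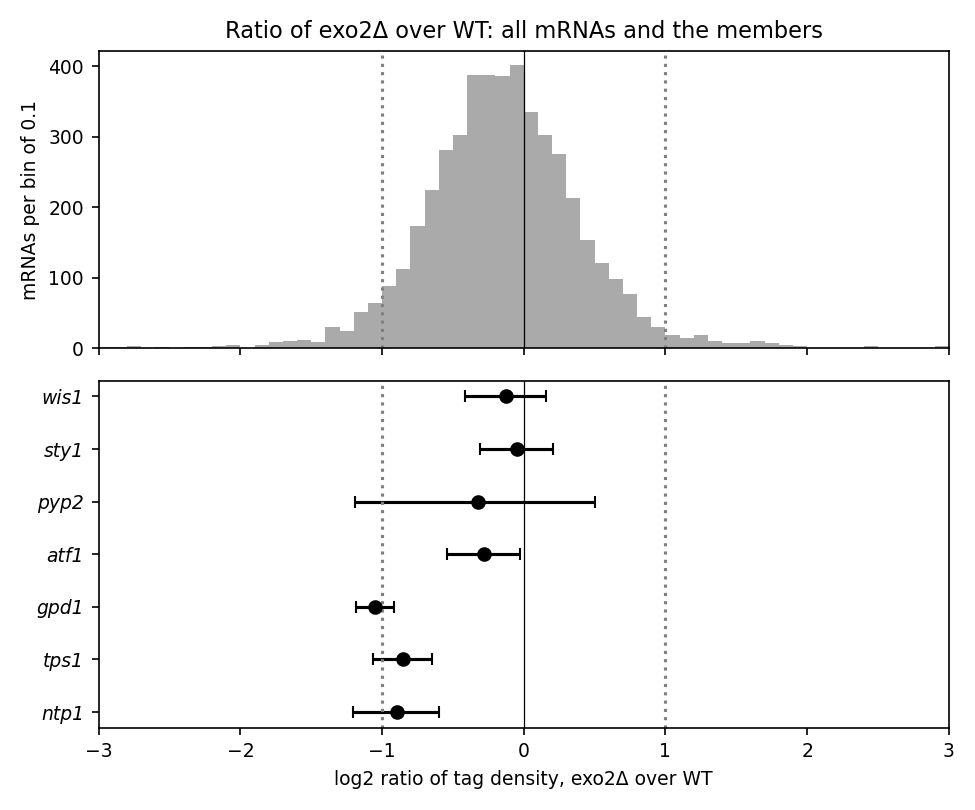
Upper panel, number of mRNAs in each bin of 0.1 of the log2 ratio of exo2Δ over WT, for the 4749 mRNAs averaging 10 reads or more (values beyond 3 are placed in the end bins). Lower panel, log2 ratio of each member with its counting 95% interval, dotted lines marking 2-fold; gpd1, tps1 and ntp1 lie between -1.05 and -0.85 and the 4 signalling genes between -0.32 and -0.05.

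The order of the members by density was not the same in the 2 libraries. In WT it was gpd1, tps1, sty1, ntp1, wis1, atf1 and pyp2. The neighbours ntp1 and wis1 had a density ratio of 1.15 (0.957 to 1.38), and wis1 and atf1 a ratio of 1.004 (0.836 to 1.204), so that these 3 genes were not separated in WT. The other neighbours differed beyond counting error, with ratios from 1.51 for tps1 over sty1 to 7.25 for atf1 over pyp2. In exo2Δ the order was gpd1, sty1, tps1, wis1, atf1, ntp1 and pyp2. There tps1 and sty1 were not separated (1.15, 0.972 to 1.37), nor were wis1 and atf1 (1.12, 0.918 to 1.36). The gene ntp1, which was above 71.2% of mRNAs in WT, stood above 50.8% of them in exo2Δ and below atf1 (1.33, 1.07 to 1.65). The kinase gene sty1 stood above 84.7% of mRNAs in WT and above 84.8% in exo2Δ.

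The 3 mRNAs closest to gpd1 in the plane of the log2 densities were SPBP23A10.11c, which the reference annotates as a beta-glucanase, tal1 and guk1. SPBP23A10.11c held 1945 reads in WT and 960 in exo2Δ, tal1 1054 and 572, and guk1 661 and 321. Their densities ran from 0.700 to 0.728 tags per nt in WT and from 0.346 to 0.379 in exo2Δ. Likeness was measured over the 2 libraries alone.

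Each member has a single coding exon, so the rest of each gene row lies outside the coding sequence. The reads were divided unevenly between these parts, and sty1 differed from the other members. The coding exon of sty1 (1050 nt) held 105 reads in WT and 115 in exo2Δ, and the remaining 519 nt held 153 and 135 reads. Outside the coding exon the density of sty1 was 0.295 tags per nt in WT and 0.260 in exo2Δ, which was 2.95 and 2.37 times that of the exon. The share outside was 59.3% of reads in WT (53.0% to 65.4%) and 54.0% in exo2Δ (47.6% to 60.3%), on 33.1% of the length. Among 2396 single-exon mRNAs with at least 100 nt outside, 96.9% in WT and 96.4% in exo2Δ had a lower ratio of outside to coding density. The median of these mRNAs was -1.10 on the log2 scale in WT and -1.07 in exo2Δ, so that the coding exon is usually the denser part. The reads of the exon alone gave sty1 a fold of 1.09 (0.832 to 1.44), and those outside it 0.880 (0.693 to 1.12), both including no change.

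In the other members the coding exon was as dense as the rest or denser in WT. For atf1, for which 1968 nt (53.6% of the length) lie outside the coding exon, the shares outside were 51.1% and 55.4% of reads, close to the share of length. Its exon held 133 reads in WT and 100 in exo2Δ, a fold of 0.750 (0.573 to 0.980) that included no change on the median-ratio scaling (0.835, 0.638 to 1.091), and the rest 139 and 124 reads, a fold of 0.890 (0.693 to 1.14). For wis1 the exon was 2.09 and 2.60 times denser than the rest, with 168 and 161 reads in the exon and 48 and 37 outside. For tps1 it was 2.69 and 2.37 times denser, with 474 and 258 reads in the exon and 76 and 47 outside. For ntp1 it was 1.82 and 2.48 times denser, with 216 and 122 reads in the exon and 46 and 19 outside. As deposited, the lower level of both trehalose genes in exo2Δ was present in the exon and in the rest. The folds were 0.543 and 0.617 for tps1 and 0.564 and 0.412 for ntp1, each with an interval below 1. The tps1 interval outside the exon reached 0.899. It was not recomputed on the median-ratio scaling, which raises log2 ratios by 0.15. In pyp2 nearly all reads were in the exon, with 28 of 29 in WT and 20 of 23 in exo2Δ.

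The lower density of gpd1 was also present in both parts. Its exon held 954 reads in WT and 497 in exo2Δ, a fold of 0.520 (0.466 to 0.580). The rest held 434 and 176 reads, a fold of 0.405 (0.338 to 0.483). The share outside was 31.3% in WT (28.8% to 33.8%) and 26.2% in exo2Δ (22.9% to 29.6%), with intervals that overlap slightly. With coding exons alone gpd1 was 1.92-fold lower, and 0 members were then past 2-fold.

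**Figure D3:**
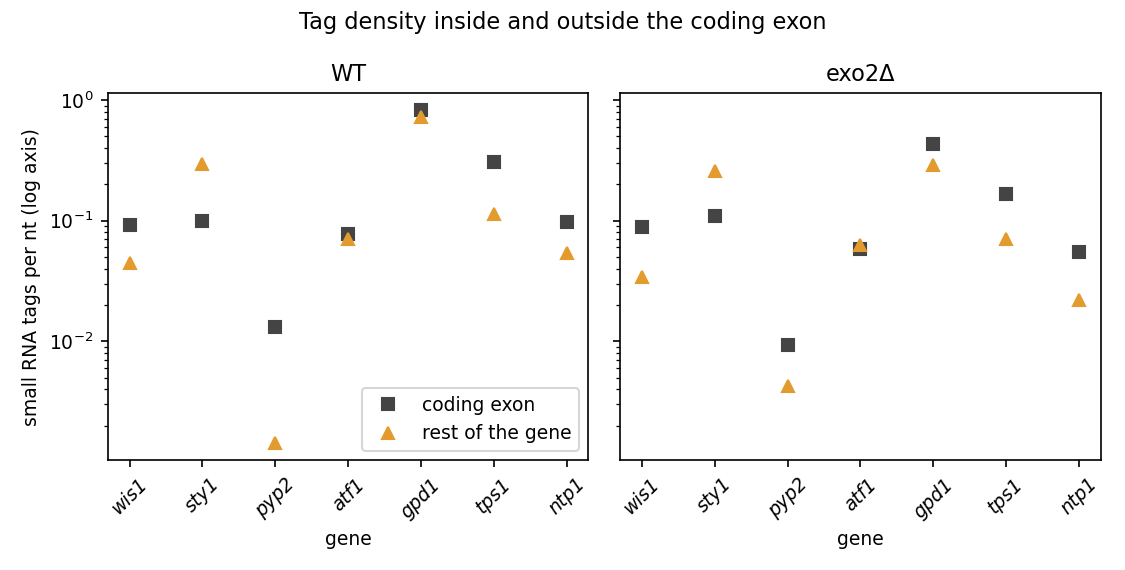
Small RNA tag density in tags per nt on a log axis, for the coding exon and for the rest of the gene row of each member, in WT (left) and exo2Δ (right), from 1 library each. In both libraries sty1 is denser outside its coding exon, by 2.95 times in WT, and in wis1, tps1 and ntp1 the exon is denser. The pyp2 value outside the exon rests on 1 read in WT and 3 reads in exo2Δ.

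The study asked whether antisense transcripts that accumulate without Exo2 (XUTs) give rise to small RNAs. The table holds 1638 XUTs. None of the 7 members had an XUT row on the other strand, at an overlap of 1 nt or more. The nearest one on the other strand was 127 nt from tps1 and 7855 nt from atf1, with the other members between. XUT0667, the one near tps1, was picked out after its values were seen and held 1 WT read and 13 exo2Δ reads. Those nearest to the other members held, in WT and exo2Δ, 1 and 0 reads (wis1), 11 and 26 (sty1) and 5 and 2 (pyp2). The rest held 47 and 81 reads (atf1), 1 and 1 (gpd1) and 1 and 2 (ntp1). Annotated ncRNAs ran antisense to 2 members, sty1 and ntp1, and the other 5 had no XUT or ncRNA on the other strand. The share of all mRNAs with such rows at this overlap was not counted, so these counts only describe the members.

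SPNCRNA.622 (chromosome I, 206775 to 209401, plus strand) lies across 1270 nt of sty1, which is 80.9% of the gene row, and covers all 1050 nt of its coding exon. It held 22 reads in WT against 32 in exo2Δ, or 0.00837 and 0.0122 tags per nt and a fold of 1.45 (0.818 to 2.62) that included no change. Over the whole rows, the density of sty1 was 19.6 times that of SPNCRNA.622 in WT and 13.1 times in exo2Δ. Only 1270 of the 2627 nt of SPNCRNA.622 are antisense to sty1, so this does not compare the strands over the same bases. Because the antisense row held fewer reads than the sty1 exon inside it, reads had been counted by strand. SPNCRNA.1327 (chromosome II, 205583 to 206910, minus strand) shares 331 nt with ntp1, none of it in the coding exon. It held 23 reads in WT and 18 in exo2Δ, a fold of 0.781 (0.397 to 1.51). Over the whole rows, the density of ntp1 was 4.94 and 3.40 times that of SPNCRNA.1327, of whose 1328 nt only the 331 shared nt are antisense to ntp1. Neither antisense ncRNA was therefore detectably different between the libraries at this depth.

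Other overlaps were short and lay outside the coding exons. The gene pyp2 shares 48 nt with the convergent gene emc10 on the other strand, which held 54 and 40 reads. On the same strand tps1 shares 63 nt with dbl4, which held 173 reads in WT and 191 in exo2Δ and so did not share the lower level of tps1. The first 61 nt of atf1 lie in SPNCRNA.1441, which held 3 reads in each library. Reads in shared bases can count in both rows. By exact match little of the members' sequence is repeated elsewhere. In ASM294v3 97.7% of the 18-mers of gpd1 and 99.3% or more of those of the other members occur once. The authors' unique mapping allowed mismatches, so this count does not show how many short reads with several places were lost.

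A list of 42 genes of the pathway, sorted by role and including the 7 members, was read in the same way. Of these 41 passed the filter, and atf21 with 3 reads in each library did not. In all 3 genes (7.32%) were higher than 2-fold in exo2Δ and 3 (7.32%) were lower, beside 2.4% and 5.05% of all mRNAs. A log2 ratio below 0 was found for 28 (68.3%), beside 62.9%, and the median was -0.21 beside -0.15. The 34 listed genes that are not members had 3 higher, 2 lower and a median of -0.18. The counts depended on the setting, with 8 lower under scaling on sn(o)RNAs, 1 lower (ctt1) on the median-ratio scaling, and 1 higher (lsd90) at a mean of 50 reads or more. No gene of the sensors and phosphorelay, the MAPK cascade, the phosphatases, the downstream kinases or the transcription factors was past 2-fold in either direction. These groups had 6, 4, 6, 2 and 5 genes past the filter. At the shares of all mRNAs (2.4% higher, 5.05% lower) few or none would be past 2-fold in groups of this size.

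Upstream of Sty1 the log2 ratios ran from -0.75 for the histidine kinase gene mak1 (317 and 189 reads) to 0.51 for the MAP kinase kinase kinase gene win1 (182 and 261 reads). The parallel MAP kinase kinase kinase gene wak1 held 341 reads in WT against 234 in exo2Δ, a log2 ratio of -0.54, so that win1 and wak1, which both feed Wis1, lay on either side of 0. Among the 6 phosphatase genes 3 were below 0 and 3 above, from -0.32 for pyp2 to 0.66 for ptc2, with 263 and 418 reads. The gene pcr1, whose product pairs with Atf1, held 110 reads in WT against 78 in exo2Δ, a log2 ratio of -0.49.

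In the glycerol and trehalose group 4 of 5 genes were below 0 and 1 (gpd1) was lower than 2-fold, beside 62.9% and 5.05% of all mRNAs, and gpd1 was not past 2-fold on the median-ratio scaling (-0.89). The gene gpd2, a second glycerol-3-phosphate dehydrogenase, held 634 reads in WT against 365 in exo2Δ, a log2 ratio of -0.80, next to the -0.85 of tps1. The gene tpp1, for the phosphatase that completes trehalose synthesis after Tps1, held 395 and 398 reads, a log2 ratio of 0.01. Lower density was therefore not shared by every gene of trehalose metabolism.

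The listed genes past 2-fold apart from gpd1 were ctt1, vip1, fbp1, lsd90 and zym1. The catalase gene ctt1 held 114 reads in WT and 39 in exo2Δ and was 2.93-fold lower (2.02 to 4.33). The gene vip1, for an RNA-binding protein, held 283 and 129 reads and was 2.20-fold lower (1.78 to 2.73), or 1.98-fold lower on the median-ratio scaling. In the other direction fbp1, for the gluconeogenic fructose-1,6-bisphosphatase, held 14 reads in WT and 52 in exo2Δ, a fold of 3.71 (2.02 to 7.24). The gene lsd90 held 34 and 116 reads, a fold of 3.40 (2.31 to 5.15), and the metallothionein gene zym1 held 11 and 28 reads, a fold of 2.54 (1.23 to 5.65). The 9 other stress targets had 3 higher, 1 lower and a median of -0.45, beside 2.4% higher and 5.05% lower over all mRNAs. Of the 3 higher genes, fbp1 and zym1 averaged fewer than 50 reads.

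**Figure D4:**
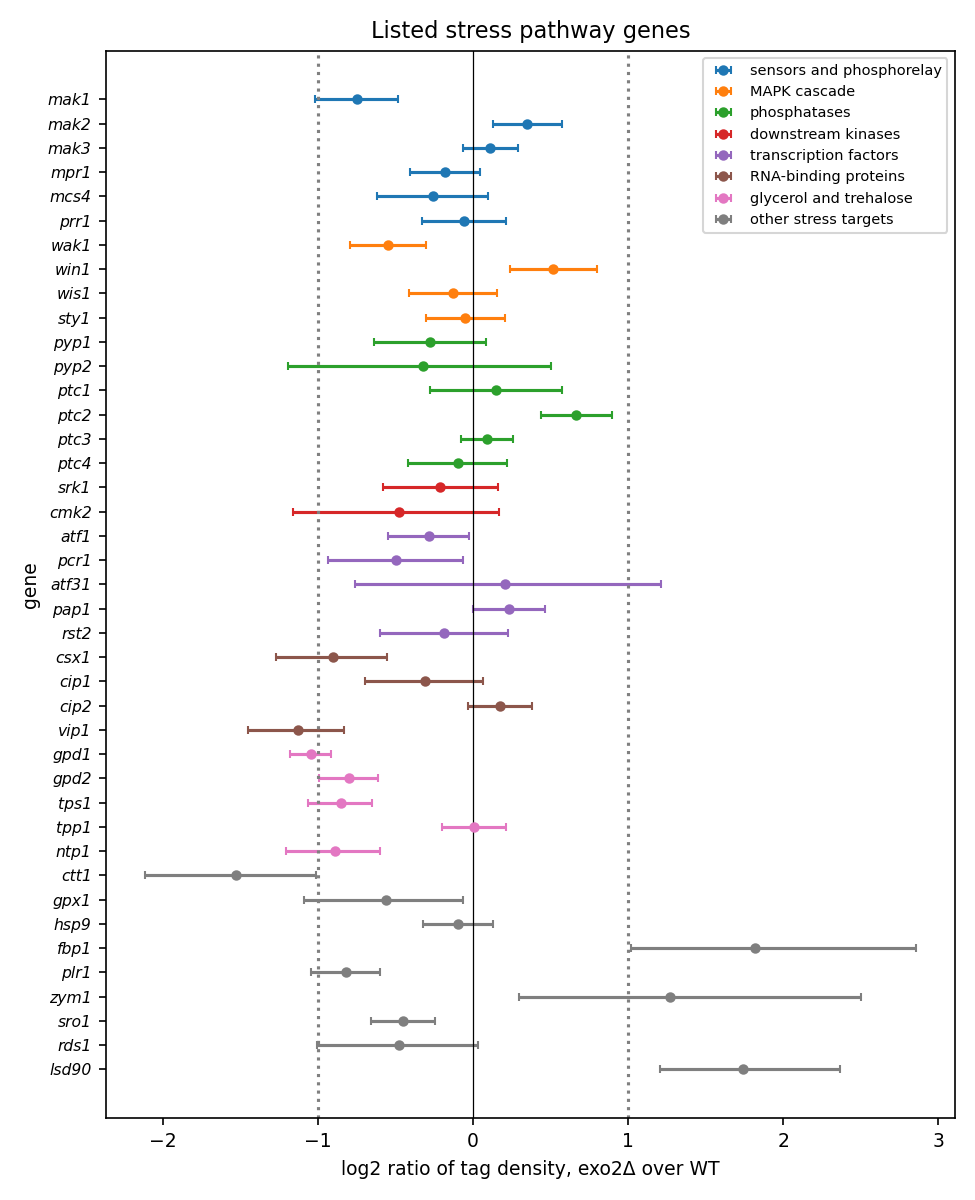
Log2 ratio of tag density, exo2Δ over WT, for the 41 listed genes averaging 10 reads or more, coloured by role. Bars are counting 95% intervals and dotted lines mark 2-fold; fbp1, lsd90 and zym1 lie above 1, and gpd1, vip1 and ctt1 lie below -1.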

How the data were processed

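The authors trimmed adapters (cutadapt) and kept uniquely mapped reads from Bowtie; the submitters' processing notes name the build ASM294v2. They deposited a signal for each feature (tags per nt); the counter is not given in the sources used here. All value columns belonged to the 2 libraries. Density times length was whole in 100% of 19343 rows in WT and a multiple of the step 0.998 in 100% in exo2Δ, with a tolerance of 0.0001 reads, which gave reads per row. Densities were compared as deposited.

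Log2 ratios had 1 read added to each library, which understates changes of rows with few reads. Folds had none, and carry exact binomial 95% intervals; densities carry exact Poisson and shares exact (Clopper-Pearson) intervals. Intervals cover counting error only, as each strain had 1 library. Reads had no molecular identifiers, so copies of 1 molecule could not be told apart and the intervals may be too narrow. No count model could be fitted with 1 library per strain. Scripts ran in Python 3.11.15 with scipy 1.17.1 and were tested on simulated data. Symbols came from RefSeq (ASM294v3), in which all 7 coding exons and 98.4% of 10190 coding exons had the coordinates of the table; printed sequences were read by RefSeq's own coordinates.

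The members and lists were chosen with earlier results of these data known. Named were the 7 members, ncRNA and XUT rows overlapping them on the other strand, exo2, at most 10 listed genes past 2-fold, and the 3 mRNAs nearest to the member of highest density. The other genes and rows given were added after values were seen. They are listed genes described by role, same-strand and convergent neighbours, and the nearest XUTs on the other strand, XUT0667 among them. The search for CRE letters, the 18-mers and the ratio of outside to coding density were also added after values were seen. Alternatives changed the scaling, the added reads, the filter, the part of the gene, the fold and the overlap.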

Additional observations from a re-analysis of the deposited data

How the results depend on the processing

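No paired analysis was possible because replicates were lacking. The scaling moved all log2 ratios together, by -0.24 on sn(o)RNAs, 0.15 on the median ratio of mRNAs and -0.026 on the total without the 10 highest features. The number of members lower than 2-fold, 1 as deposited, was 3 on sn(o)RNAs, 0 on the median ratio of mRNAs, 0 in coding exons alone and 3 at a ratio over 1.5. For the pathway list, 3 lower became 8 on sn(o)RNAs and 1 on the median ratio, and 3 higher became 1 at a mean of at least 50 reads. For all mRNAs, 240 lower became 501 and 146 under these scalings and 142 at a mean of at least 50 reads, and 114 higher became 73 on sn(o)RNAs and 65 at a mean of at least 50 reads. The percentage lower went from 5.05% to 10.5% and 3.07%, and the higher ones as a share of all past 2-fold from 32.2% to 12.7% and 53.7%. Fewer genes entered at the higher filter. Of 52 recomputed values of single members and antisense ncRNAs 49 stayed within their counting interval. The exceptions were gpd1, at -1.29 on sn(o)RNAs and -0.89 on the median ratio, and tps1, at -1.09 on sn(o)RNAs. All scaling shifts were smaller than the median half-width of the member intervals, 0.26. The count of values that stayed was thus largely fixed in advance and is no check of them. The gene ntp1 passed 2-fold on sn(o)RNAs, at -1.13, while inside its interval. The small differences of wis1 and sty1 changed sign on the median ratio, to 0.026 and 0.11, and sty1 also in its coding exon, at 0.13. The members' median, which is the value of pyp2, was 0.16 to 0.18 below that of mRNAs under all 4 scalings. A scaling moves members and mRNAs alike, so this gap could hardly change and is no check of it. Depth limits pyp2 and both antisense ncRNAs, with at most 32 reads in a library.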
